A study of Mus musculus with 25 samples.

Results

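The genes of mechanistic target of rapamycin complex 1 (mTORC1) and its main route to protein synthesis were followed in gastrocnemius, a fast hindlimb muscle, of mice that received thymol or vehicle. The group holds 10 of the 8829 genes in the table: Mtor, Rptor, Mlst8, Rheb, Akt1s1, Rps6kb1, Eif4ebp1, Eif4e, Rragc and Lamtor1. They were chosen by their known place in the pathway and by being present in the table, which keeps genes with at least 30 reads in at least 6 libraries. All 10 genes were therefore present by choice, and none fell below 54 reads in any mouse. Their presence cannot show how much of the pathway the filter on low values left in place. Of the amino acid and lysosome inputs, for example, 23 of 28 listed genes were analysed here. Because presence in the table rests on the level, the levels are given as a description with no test.

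The 25 mice were males of the SAMP8 strain, an inbred line with early ageing of muscle and brain. From the age of 8 months, 14 mice (Thymol) were given thymol, a plant terpenoid, by oral gavage over 3 months, and 11 mice (Control) the corn oil vehicle. The dose of thymol was 20 mg/kg per day, not given on every day of the week. All carried the same genetic background, no group received another agent, and no non-accelerated strain was included. RNA was measured with QuantSeq 3′ libraries, which read 1 tag from the end of each transcript, and depth ran from 4463818 to 9463418 reads per library (median 7554333 in Control and 7479077 in Thymol). Fast-fibre markers such as Acta1, Ckm and Myh4 summed to between 108546 and 151954 CPM (read counts scaled to a common library size) over the mice, and slow-fibre markers to between 64.2 and 8610 CPM. Single libraries stood at the extreme for markers of other cell types. Control 18 was highest for fibroblast and leukocyte markers, Control 19 was highest for adipocyte markers, and Thymol 20 was lowest for slow-fibre markers, while Control 14 was highest for endothelial and erythrocyte markers and Thymol 21 was lowest for Schwann cell markers. Control 18, Control 19 and Thymol 20 had been set apart with earlier results known, and values without these 3 mice are given beside the results they moved most.

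mTORC1 is a protein kinase complex that promotes protein synthesis and restrains autophagy when amino acids and growth factors are plentiful. Amino acids act through Rag GTPases tethered to the lysosome by the Ragulator, growth factors act through the small GTPase Rheb, and the complex signals onward by phosphorylating S6 kinase and the 4E-BP repressors of cap-dependent translation. In skeletal muscle the pathway is known for its part in growth after feeding or loading. Its activity is set by phosphorylation and location of proteins, neither of which RNA levels measure.

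Levels are on the deposited scale, log2 CPM, and since each transcript yields 1 tag they can be compared between genes without a length correction. Lamtor1, the Ragulator subunit that anchors the complex to the lysosome, stood highest at 6.07 ± 0.18 log2 CPM (SD, n = 25), or 67.9 CPM. Eif4e, the cap-binding translation factor, followed at 5.76 ± 0.16, and Rps6kb1, which encodes S6 kinase 1, at 5.55 ± 0.19 log2 CPM. Eif4ebp1, the gene of the translational repressor 4E-BP1, stood at 4.97 ± 0.31 log2 CPM. Rheb, the direct activator, stood at 4.65 ± 0.19 and Mtor, the kinase itself, at 4.27 ± 0.30 log2 CPM.

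The remaining 4 genes had the lowest means. Akt1s1, which encodes the inhibitory subunit PRAS40, averaged 4.18 ± 0.31 log2 CPM and Rragc, a Rag GTPase, 4.03 ± 0.30 log2 CPM. Mlst8, a subunit shared with mTORC2, averaged 3.90 ± 0.23 log2 CPM. Rptor, the scaffold that recruits mTORC1 substrates, was lowest at 3.60 ± 0.30 log2 CPM, or 12.4 CPM. Among all 8829 genes ordered by mean level the set ran from rank 1355 (Lamtor1) to rank 5442 (Rptor). The order of the 10 means was the same in Control and in Thymol mice.

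In that order, 2 of the 9 steps exceeded the spread of the difference within a mouse. Lamtor1 lay above Eif4e by 0.31 ± 0.23 log2 (SD, n = 25), in 24 of 25 mice, and Rps6kb1 lay above Eif4ebp1 by 0.58 ± 0.32 log2, also in 24 of 25 mice. For the other 7 neighbouring pairs the mean difference was smaller than its SD over mice, and they were ordered the same way in 15 to 21 of 25 mice. Their mean differences ran from 0.09 ± 0.08 log2 (SE, Mtor over Akt1s1) to 0.38 ± 0.08 log2 (SE, Rheb over Mtor), so the order of the means was more certain for some of these pairs than for others.

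**Figure D1:**
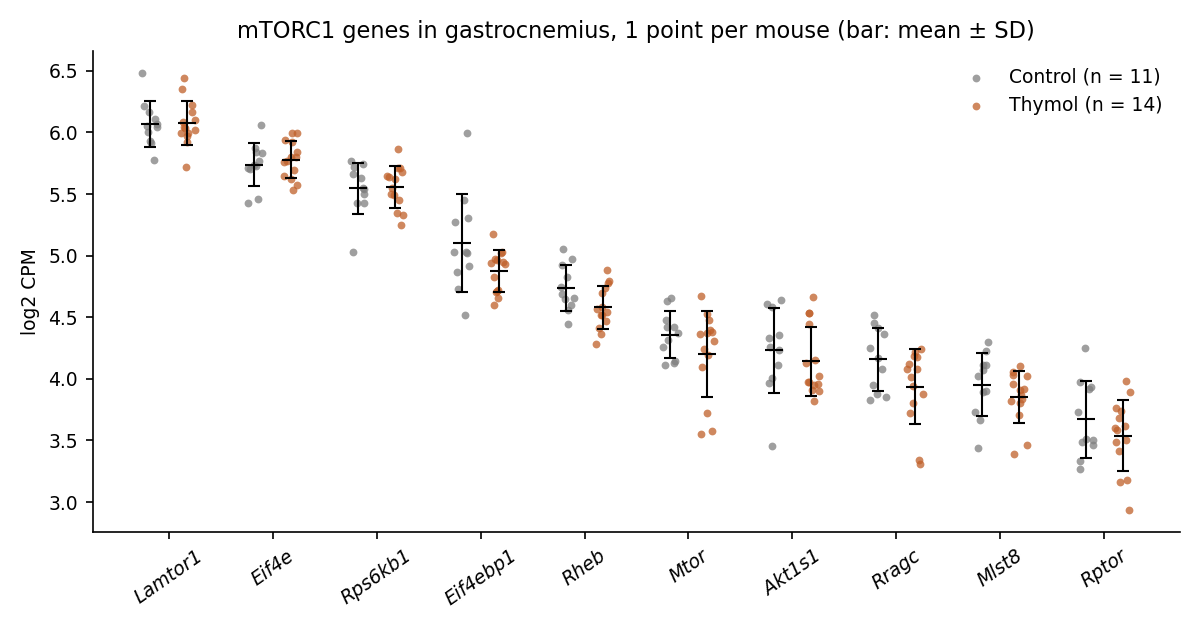
Level of each gene in log2 CPM (vertical axis) for the 10 genes ordered by mean (horizontal axis), with 1 point per mouse, Control in grey (n = 11), Thymol in orange (n = 14) and bars for the mean ± SD. The groups overlap for every gene, with Control 19 standing alone at 5.99 for Eif4ebp1 and 3 Thymol mice low for Mtor.

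The spread between mice was larger than counting error for every member. With group means removed, the between-mouse SD was 1.69 (Mlst8) to 3.06 (Eif4ebp1) times the SD that counting the reads alone would give, and 65% to 89.3% of the variance lay over counting error. Eif4ebp1 varied more than 82.7% of the 1622 genes within 0.5 log2 of its level. Rheb varied little, with a larger SD than only 14.7% of the 1750 genes at its level. The median SD of the 10 members was 0.26 log2, against 0.28 log2 over all 8829 genes.

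**Figure D2:**
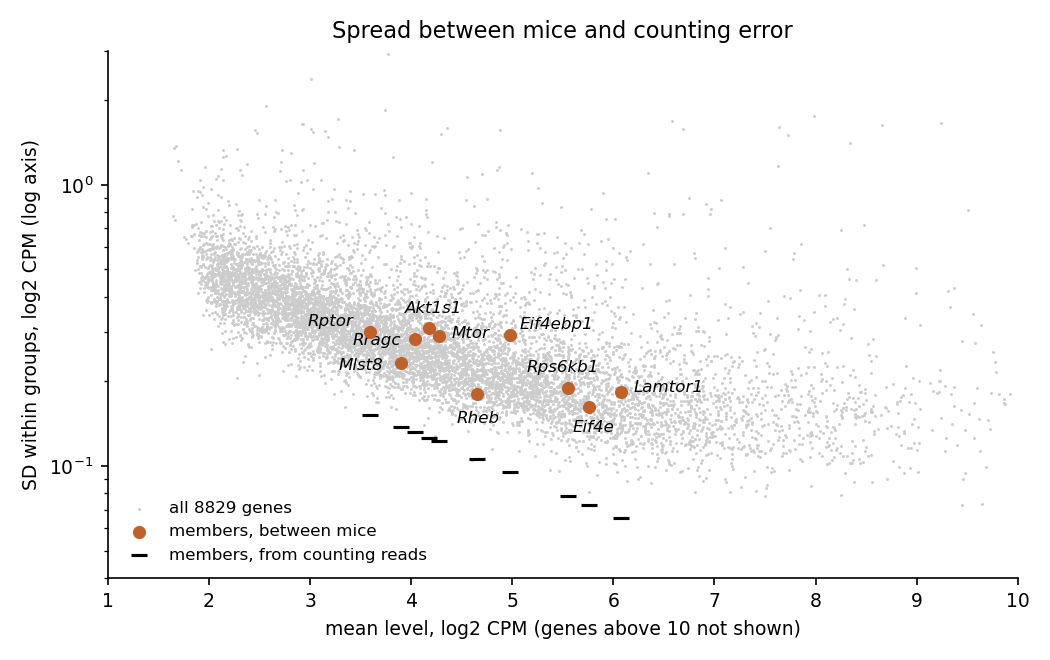
SD within groups in log2 CPM (vertical log axis) against mean level in log2 CPM (horizontal axis) for all 8829 genes in grey and the members in orange, with black dashes for the SD from counting reads. Each member lies above its counting SD, by 1.69 times for Mlst8 and 3.06 times for Eif4ebp1.

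Whether thymol changed these transcripts was asked with limma on the log2 values of all 8829 genes. No gene of the table passed an adjusted p of 0.05, a background of 0%, and the smallest Benjamini-Hochberg adjusted p of any gene was 0.741. At an unadjusted p under 0.05 there were 312 genes, or 3.53%, and those with lower values in Thymol were 150, or 1.70%. The mean was lower in Thymol for 50.4% of all genes and for 7 of the 10 members, whose median difference was -0.12 log2 against -0.0014 log2 over all genes. Among the members 0 passed the adjusted threshold, each with an adjusted p of 1 in limma, and 1 (Eif4ebp1) had an unadjusted p under 0.05. The members had been selected with these differences already known, so the unadjusted p-values are given as descriptions.

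Of the translation arm, Eif4ebp1 had the lowest p. In Control mice it ran from 4.52 (Control 10) through a median of 5.03 to 5.99 log2 CPM (Control 19), and in Thymol mice from 4.60 (Thymol 9) through 4.94 to 5.17 (Thymol 20). The groups overlapped, 12 of the 14 Thymol values were under the Control median, and 4 of 11 Control mice lay above every Thymol mouse. The means were 5.10 ± 0.40 in Control (SD, n = 11) and 4.87 ± 0.17 in Thymol (SD, n = 14). The limma difference was -0.23 ± 0.11 log2 (SE), with a 95% interval of -0.46 to -0.0027, an unadjusted p of 0.0475 and an adjusted p of 1. The p was at the edge of the threshold: leaving out any 1 of 13 mice raised it to 0.05 or more. Control 19 moved the difference most, since the second highest Control value was 5.45, and without that mouse the difference was -0.14 log2 with an unadjusted limma p of 0.134, while the Control SD went from 0.40 to 0.28. Without any 1 of the other mice it lay between -0.29 and -0.19 log2. Without Control 18, Control 19 and Thymol 20 it was -0.13 log2 with an unadjusted limma p of 0.155.

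The values of Eif4e and Rps6kb1 were close in both groups. Eif4e, the factor that 4E-BP1 sequesters, had a median of 5.74 log2 CPM in Control (range 5.43 to 6.06) and 5.78 in Thymol (range 5.54 to 5.997), a limma difference of 0.04 ± 0.07 log2 (SE, 95% interval -0.10 to 0.18) that was 0.0083 without Control 19. Rps6kb1, the S6 kinase gene, had medians of 5.55 (range 5.03 to 5.77) and 5.59 (range 5.24 to 5.86), a limma difference of 0.01 ± 0.08 log2 (SE, 95% interval -0.15 to 0.17). In this fit the interval of both excluded a shift of 0.2 log2 in either direction. With the first label number as a block, such a shift was not excluded for either gene. Eif4e then differed by 0.04 ± 0.10 and Rps6kb1 by -0.09 ± 0.11 log2 (SE). Of the 31-base words near annotated transcript ends, 30.4% of those of Eif4e also occur in other genes, 27.7% in Gm7327, so its reads may be split in part.

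Rheb and Rragc, which carry the growth factor and the amino acid input, were the next lowest in p. Rheb ran from 4.44 (Control 19) through a median of 4.69 to 5.06 log2 CPM (Control 27) in Control and from 4.29 (Thymol 6) through 4.55 to 4.88 (Thymol 11) in Thymol. The ranges overlapped, with 3 Thymol mice below every Control mouse and 3 Control mice above every Thymol mouse. The limma difference was -0.16 ± 0.08 log2 (SE, 95% interval -0.31 to 0.0020), with an unadjusted p of 0.0528 and an adjusted p of 1. Without Control 18, Control 19 and Thymol 20 it was -0.19 log2, with an unadjusted limma p of 0.0285. It was also -0.19 log2 with the first label number as a block, with an unadjusted limma p of 0.142. Of 10 alternative fits for Rheb, 1 gave an unadjusted p under 0.05.

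Rragc ran from 3.83 (Control 10) through a median of 4.17 to 4.52 log2 CPM (Control 18) in Control and from 3.31 (Thymol 16) through 4.05 to 4.24 (Thymol 7) in Thymol. Its lowest 4 values were all Thymol mice and its highest 5 all Control mice, with the rest interleaved. The limma difference was -0.22 ± 0.11 log2 (SE, 95% interval -0.45 to 0.0071), with an unadjusted p of 0.057 and an adjusted p of 1. Lamtor1, which holds the Rag GTPases at the lysosome, had medians of 6.05 in Control (range 5.78 to 6.49) and 6.04 in Thymol (range 5.72 to 6.44). Its limma difference was 0.01 ± 0.07 log2 (SE, 95% interval -0.14 to 0.16).

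In the core complex, Mtor had a median of 4.37 log2 CPM in Control (range 4.11 to 4.66) and 4.34 in Thymol (range 3.55 to 4.67). Thymol 3, Thymol 21 and Thymol 11 stood apart at 3.55, 3.58 and 3.73 log2 CPM, or 11.7 to 13.2 CPM, while the other 22 mice lay at 4.10 or higher. The limma difference was -0.15 ± 0.11 log2 (SE, 95% interval -0.38 to 0.08). Rptor had medians of 3.51 (range 3.27 to 4.25) and 3.59 (range 2.94 to 3.98), so its median was higher and its mean lower in Thymol, with a limma difference of -0.13 ± 0.12 log2 (SE, 95% interval -0.38 to 0.11). Without Control 18, Control 19 and Thymol 20 it was -0.07 log2 for Rptor.

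Mlst8 had medians of 4.03 (range 3.44 to 4.30) in Control and 3.89 (range 3.39 to 4.11) in Thymol, with 11 of 14 Thymol mice below the Control median. Its limma difference was -0.10 ± 0.10 log2 (SE, 95% interval -0.30 to 0.09). Akt1s1 had medians of 4.26 (range 3.45 to 4.64) and 3.999 (range 3.82 to 4.66), with a limma difference of -0.09 ± 0.12 log2 (SE, 95% interval -0.34 to 0.15), which was -0.21 (unadjusted limma p = 0.0755) without Control 18, Control 19 and Thymol 20. The intervals of all 4 core genes included both no change and a fall of 0.3 log2.

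**Figure D3:**
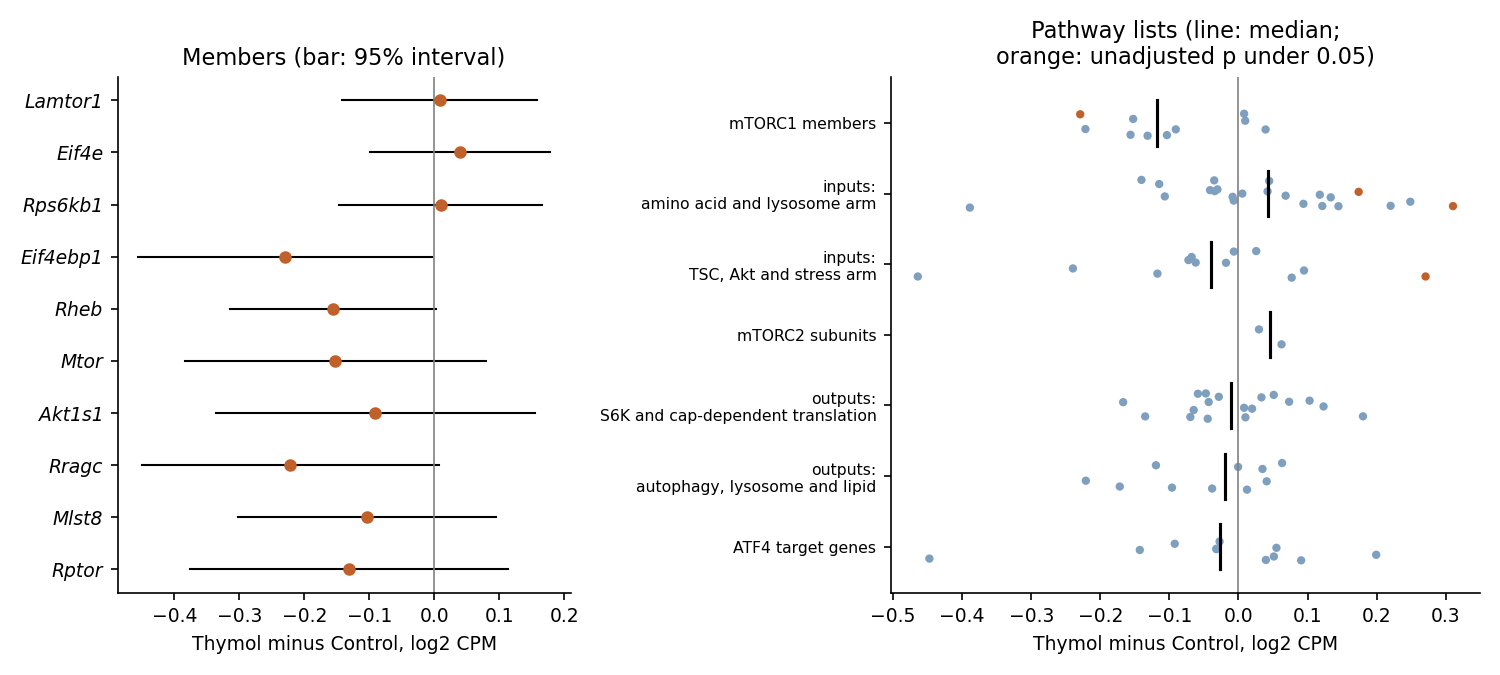
Thymol minus Control in log2 CPM (horizontal axes), at left for each member with its 95% interval, at right for each gene of 7 pathway lists with a black line at the list's median and genes with an unadjusted p under 0.05 in orange. Of the members' intervals that of Eif4ebp1 alone lies below 0, ending at -0.0027, and the list medians lie between -0.12 and 0.05.

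Ratios of 2 members within a mouse do not depend on how a library was scaled, and 5 were compared by a two-sided permutation test with 100000 resamples. Eif4ebp1 over Eif4e, repressor to target, was -0.64 ± 0.49 log2 in Control (SD, n = 11) and -0.91 ± 0.22 log2 in Thymol (SD, n = 14), a difference of -0.27 (permutation p = 0.0683, adjusted p = 0.171). Rps6kb1 over Eif4ebp1 was 0.44 ± 0.34 and 0.68 ± 0.26 log2, a difference of 0.24 (permutation p = 0.0582, adjusted p = 0.171), with 12 of 14 Thymol mice above the Control median. Without Control 19 these differences were -0.15 (permutation p = 0.177) and 0.17 log2 (permutation p = 0.133). As a difference of medians they were -0.07 (permutation p = 0.38) and 0.25 log2 (permutation p = 0.0438), and neither passed after adjustment over the 5 ratios.

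The other 3 ratios compared subunits of the complexes. Rptor over Mtor differed by 0.02 log2 (permutation p = 0.912, adjusted p = 0.912) and Akt1s1 over Rptor by 0.04 log2 (permutation p = 0.832, adjusted p = 0.912). The latter was -0.14 log2 without Control 18, Control 19 and Thymol 20 and -0.04 log2 as a difference of medians. Rptor over Rictor, which sets the scaffold of mTORC1 against that of mTORC2, differed by -0.16 log2 (permutation p = 0.264, adjusted p = 0.44). None of the 5 ratios passed the adjusted threshold.

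Whether the members rose and fell together from mouse to mouse was asked for all 45 pairs, with group means removed and a permutation test within groups. Pearson r ran from -0.36 to 0.32 with a median of -0.0039, and 0 pairs reached r = 0.5, where 1.22% of the 38971206 pairs of the table did. No pair passed, with 0.794 as the lowest adjusted p and 0 pairs at an unadjusted permutation p under 0.05. The highest pair was the kinase and its substrate, Mtor and Rps6kb1, with r = 0.32 (rho = 0.22, permutation p = 0.104) and r = 0.38 without the 2 mice farthest in Mtor. The lowest was Rheb and Rps6kb1, with r = -0.36 (rho = -0.29, permutation p = 0.0902).

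For 3 pairs of genes whose proteins bind each other, r moved when 2 mice were left out. Mtor and Rptor had r = -0.22 (rho = -0.09, permutation p = 0.294), and r = 0.02 without Thymol 21 and Thymol 3. Mtor and Mlst8 had r = 0.12 (rho = 0.15, permutation p = 0.567), which was 0.41 without Thymol 21 and Thymol 3 and 0.51 within Control mice against -0.07 within Thymol mice. Eif4ebp1 and Eif4e had r = -0.22 (rho = 0.0038, permutation p = 0.335), which was 0.18 without Control 10 and Control 19, so the sign rested on those mice. Within Control mice 2 of 45 pairs (4.44%) reached r = 0.5, against 6.91% of all pairs of the table, and within Thymol mice 1 pair (2.22%) did, against 4.01%.

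**Figure D4:**
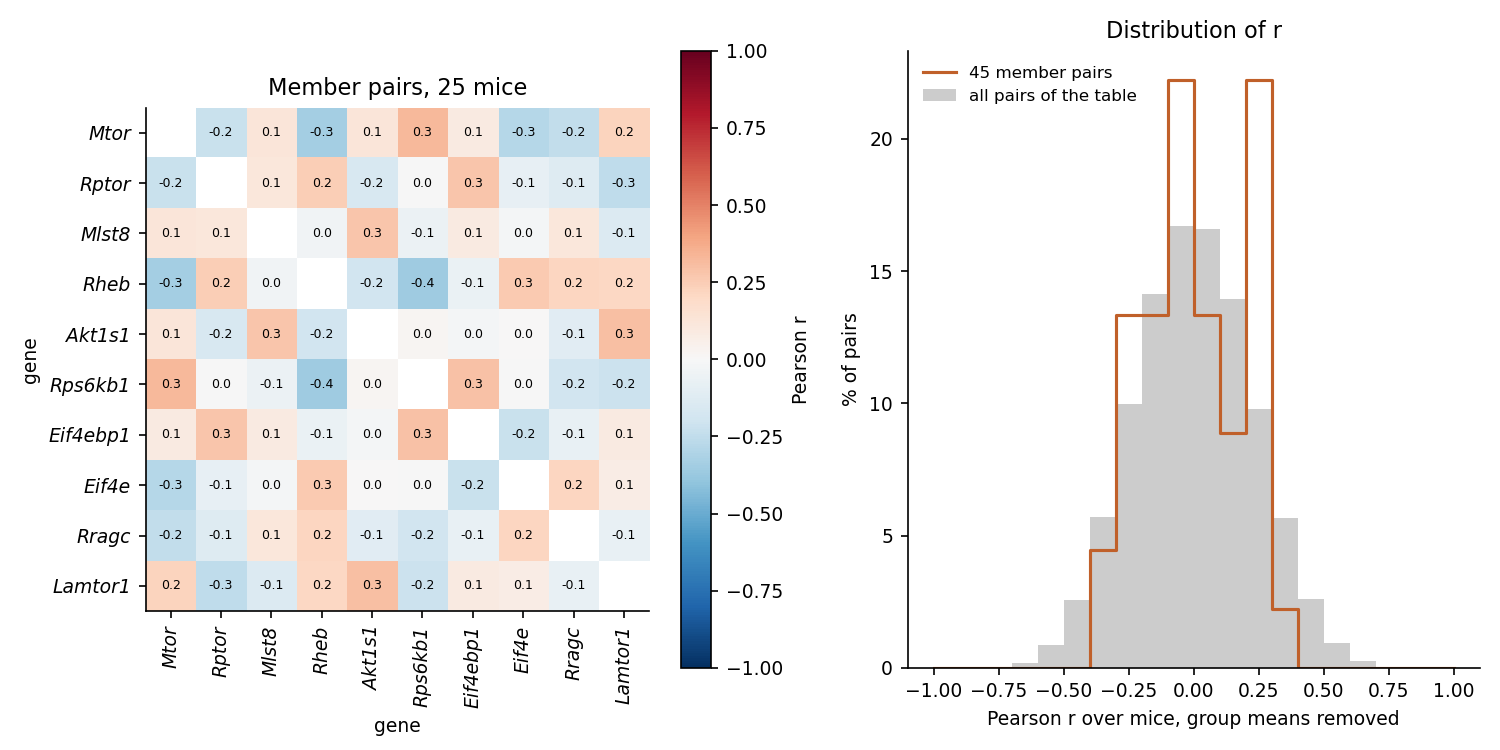
Left, Pearson r for each pair of members over 25 mice with group means removed (colour and number), with genes on both axes. Right, percent of pairs (vertical axis) by Pearson r in steps of 0.1 (horizontal axis) for all pairs of the table in grey and the 45 member pairs as an orange line. Member pairs lie between -0.36 and 0.32, inside the spread of all pairs.

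The genes most like each member were sought over 25 mice and are given as a description, each the highest over all other genes of the table. The genes most like Mtor were Sec23ip (r = 0.74) and Znfx1 (r = 0.67), and those most like Rptor were Tpcn1 (r = 0.73), a lysosomal channel gene, and Usp36 (r = 0.68). Rps6kb1 was followed most closely by Eif2s2 (r = 0.75), a subunit of a translation initiation factor, and Hif1an (r = 0.75). Eif4e was closest to Fhl3 (r = 0.80) and Rit1 (r = 0.74), and Rheb to Emc2 (r = 0.72) and Micos13 (r = 0.69). Mlst8 was closest to Wdr5 (r = 0.76) and Rnf146 (r = 0.68), Akt1s1 to Pkdcc (r = 0.77) and Ubxn2a (r = 0.76), Rragc to Carm1 (r = 0.72) and Twf1 (r = 0.71), and Lamtor1 to Nfe2l1 (r = 0.68) and Cstf1 (r = 0.68). Eif4ebp1 was closest to Fbxo21 (r = 0.77) and Zranb1 (r = 0.74), but without Control 18, Control 19 and Thymol 20 these were 0.50 and 0.60. A member's best partner among the other 9 stood between place 601 and place 1514 of the table's genes ordered by r.

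Promoters were read for 9 of the 10 members from RefSeq (GRCm38.p6), as 300 bases from 250 before to 50 after the start. Only the first start listed for a gene was used. The palindromic E-box CACGTG, a motif of the MiT/TFE factors that govern lysosomal genes, was in 3 of them, against 10.8% of 7076 promoters of genes in the table and 7.15% of all 32851 promoters. Those of Rheb (chr5:24842312-24842611, minus strand, E-box at -96), Rragc (chr4:123917183-123917482, plus strand, E-box at -112) and Lamtor1 (chr7:101905587-101905886, plus strand, E-box at -68) are shown 5′ to 3′ with the E-box in capitals, because these 3 genes share a motif whose factors answer to mTORC1.
Rheb: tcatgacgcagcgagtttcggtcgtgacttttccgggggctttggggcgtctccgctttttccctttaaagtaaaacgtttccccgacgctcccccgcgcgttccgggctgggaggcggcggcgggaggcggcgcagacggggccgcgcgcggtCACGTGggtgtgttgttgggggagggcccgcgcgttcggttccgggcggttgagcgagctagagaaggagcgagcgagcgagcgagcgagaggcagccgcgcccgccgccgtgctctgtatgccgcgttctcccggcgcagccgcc
Rragc: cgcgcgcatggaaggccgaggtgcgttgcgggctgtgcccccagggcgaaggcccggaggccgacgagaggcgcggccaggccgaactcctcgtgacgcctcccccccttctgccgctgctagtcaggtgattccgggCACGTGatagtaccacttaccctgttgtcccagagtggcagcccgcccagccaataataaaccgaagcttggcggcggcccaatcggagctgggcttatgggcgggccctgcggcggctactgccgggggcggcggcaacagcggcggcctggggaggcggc
Lamtor1: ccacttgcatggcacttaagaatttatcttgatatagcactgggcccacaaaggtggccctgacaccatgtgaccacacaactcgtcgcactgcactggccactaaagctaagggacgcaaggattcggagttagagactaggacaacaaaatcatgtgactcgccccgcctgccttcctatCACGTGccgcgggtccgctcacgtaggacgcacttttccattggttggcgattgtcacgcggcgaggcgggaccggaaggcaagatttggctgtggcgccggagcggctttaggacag
The Rheb window lies inside the gene as annotated in GENCODE M21 (chr5:24802823-24842624). Its E-box is thus upstream of the RefSeq start used but within the GENCODE gene. No pair of these 3 genes passed the test of co-variation between mice. Rheb and Rragc had r = 0.21 (rho = 0.19, permutation p = 0.314), Rheb and Lamtor1 r = 0.21 (rho = 0.24, permutation p = 0.331), and Rragc and Lamtor1 r = -0.08 (rho = -0.04, permutation p = 0.726). Thymol minus Control was likewise unequal among them, at -0.16 log2 for Rheb, -0.22 for Rragc and 0.01 for Lamtor1.

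Other motifs, searched on both strands, were as follows. The GC box GGGCGG was in 4 of 9 members' promoters against 67.3% of the table's. The ETS core CCGGAA was in 5 of 9 against 29.8%, and the CCAAT box in 3 of 9 against 38.0%. Akt1s1 is counted for the GC box and the ETS core. Its window (chr7:44850122-44850421) lies inside its GENCODE M21 gene (chr7:44848991-44855421), as that of Rheb does. The TATA box TATAAA (7.14% of the table's), the C/EBP-ATF element TGATGNAA (2.16%) and the NRF1 motif (11.8%) were in 0 of 9. GC content ran from 41.7% to 70.7% among members, against a median of 61.7% for the table.

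In GENCODE M21 (GRCm38) several members overlap a gene on the other strand, and since the strand setting of the counting was not given in the sources used here, reads of such partners cannot be told apart. Mtor (chr4:148448611-148557683) overlaps Angptl7, Akt1s1 (chr7:44848991-44855421) overlaps Tbc1d17, Rps6kb1 (chr11:86498871-86544805) overlaps Rnft1 and Mlst8 (chr17:24473551-24479078) overlaps Bricd5. Rptor (chr11:119602905-119899576) overlaps Rptoros and Gm11761, Lamtor1 (chr7:101905904-101926675) overlaps Tomt and Lrrc51, and Rragc (chr4:123917446-123936997) overlaps 4930535I16Rik, and Gm12902 on its own strand. Eif4ebp1 (chr8:27260329-27276674) overlaps no annotated gene. Rheb (chr5:24802823-24842624) and Eif4e (chr3:138526179-138559696) overlap only small RNA genes on their own strand.

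The wider pathway was read from lists of genes upstream and downstream, in which 0 genes passed the adjusted threshold in limma. Of the amino acid and lysosome inputs, 23 of 28 listed genes were analysed here, 13 higher and 10 lower in Thymol with a median of 0.04 log2. Of these, 2 had an unadjusted limma p under 0.05, both higher. Slc38a9, a lysosomal arginine sensor, had a median of 3.42 log2 CPM in Thymol against 3.13 in Control and a limma difference of 0.31 ± 0.13 log2 (SE, unadjusted p = 0.0196, adjusted p = 1), with 13 of 14 Thymol mice above the Control median. Fnip1, a folliculin partner that acts on the Rag GTPases, differed by 0.17 ± 0.08 log2 (SE, unadjusted p = 0.0407, adjusted p = 1). With the first label number as a block, Slc38a9 differed by 0.29 log2 (unadjusted limma p = 0.113) and Fnip1 by 0.23 log2 (unadjusted limma p = 0.0388). Without Control 18, Control 19 and Thymol 20 they differed by 0.30 (unadjusted limma p = 0.0454) and 0.16 log2 (unadjusted limma p = 0.0669). Sesn1, a leucine-sensing inhibitor of the pathway, had the lowest p among the lower genes, at -0.39 ± 0.19 log2 (SE, unadjusted limma p = 0.0549, adjusted p = 1). Its difference was -0.43 log2 with that block (unadjusted limma p = 0.045) and -0.32 log2 without those 3 mice (unadjusted limma p = 0.135). Rraga, a Rag GTPase, was the most abundant of this list at 7.14 log2 CPM and Wdr24, a GATOR2 subunit, the least at 2.15.

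Of the TSC, Akt and stress inputs, 12 of 14 listed genes were analysed here, 4 higher and 8 lower with a median of -0.04 log2. Without Control 18, Control 19 and Thymol 20 these counts were 7 and 5 and the median was 0.0030. Tsc2, which encodes the GTPase-activating protein that switches Rheb off, had the only unadjusted limma p under 0.05, at 0.27 ± 0.12 log2 (SE, p = 0.0343, adjusted p = 1), and it overlaps Pkd1 on the other strand. With the first label number as a block the difference of Tsc2 was 0.29 log2 (unadjusted limma p = 0.118). Ddit4l, a stress-induced inhibitor of mTORC1, was the most abundant at 8.38 log2 CPM. The mTORC2 subunits Rictor and Mapkap1, the 2 of 4 analysed here, differed by 0.03 ± 0.10 and 0.06 ± 0.07 log2 (SE), at levels of 4.71 and 4.88 log2 CPM. Without Control 18, Control 19 and Thymol 20 the differences were 0.09 and 0.0018 log2.

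Of the S6 kinase and cap-dependent translation outputs, 18 of 20 listed genes were analysed here, 9 higher and 9 lower, with a median of -0.01 log2 and 0 unadjusted p-values under 0.05. Eif4b, a helicase cofactor that S6 kinase phosphorylates, differed by 0.12 ± 0.07 log2 (SE, unadjusted limma p = 0.0987), and Poldip3, an S6 kinase partner also called SKAR, by -0.17 ± 0.09 log2 (SE, unadjusted limma p = 0.0784). With the first label number as a block these were 0.22 (unadjusted limma p = 0.0398) and -0.30 log2 (unadjusted limma p = 0.0284). Eef2, the elongation factor restrained by a kinase downstream of the pathway, was the most abundant at 9.63 log2 CPM and differed by 0.03 ± 0.05 log2 (SE). Eif4a1, the cap-binding complex helicase, was the least abundant at 2.97 log2 CPM.

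Of the autophagy, lysosome and lipid outputs all 10 listed genes were analysed, 4 higher and 6 lower, with a median of -0.02 log2 and 0 unadjusted p-values under 0.05. Uvrag, an autophagosome and endosome maturation gene, was lowest in p at -0.22 ± 0.12 log2 (SE, unadjusted limma p = 0.0845) and also the least abundant at 3.11 log2 CPM. Mitf, a member of the MiT/TFE factors, differed by 0.06 ± 0.09 log2 (SE, unadjusted limma p = 0.498). Lpin1, a lipid phosphatase gene, was the most abundant at 7.97 log2 CPM. ATF4 is a factor whose translation the pathway promotes. Of a list of Atf4 and its targets, 11 of 18 genes were analysed here, 5 higher and 6 lower, Atf4 among the lower. Their median was -0.03 log2, with 0 unadjusted p-values under 0.05. Ddit3 differed by 0.20 ± 0.18 log2 (SE, unadjusted limma p = 0.279) and Slc3a2, an amino acid exchanger subunit, by -0.14 ± 0.09 log2 (SE, unadjusted limma p = 0.115). The difference of Ddit3 was 0.0185 without Control 19, and that of Slc3a2 was -0.30 with the first label number as a block (unadjusted limma p = 0.0219) and -0.09 without Control 18, Control 19 and Thymol 20. Atf4 itself was the most abundant at 8.20 log2 CPM and Pycr1, a proline synthesis enzyme, the least at 2.07.

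Because whole muscle was sampled, fewer cells of a type and less RNA per cell cannot be told apart, and the members were set beside markers of 8 cell types and beside depth in 90 relations over 25 mice. None passed, all with an adjusted permutation p of 0.243 or more, and 10 had an unadjusted permutation p under 0.05. The share of such relations over all genes of the table was not computed. The 10 are therefore a description and not a trait of the members. Eif4ebp1 followed the 7 adipocyte markers at r = 0.51 (rho = 0.39, permutation p = 0.00891), which was 0.30 without Control 19 and Thymol 7 and 0.31 without Control 19 alone. These markers summed to 2271 to 6315 CPM in Control and 2004 to 5211 CPM in Thymol, and the lowest of them, Plin1, averaged 3.01 log2 CPM. Eif4ebp1 also ran against the endothelial markers (r = -0.49, rho = -0.53, permutation p = 0.0108), as did Rps6kb1 (r = -0.51, rho = -0.52, permutation p = 0.0102). The endothelial markers summed to 224 to 339 CPM in Control and 207 to 285 CPM in Thymol. The part of either cell type in the values of Eif4ebp1 was not tested.

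Rheb ran against the 4 Schwann cell markers analysed here (r = -0.54, rho = -0.57, permutation p = 0.00766), and the relation was -0.55 without the 2 mice farthest in Schwann cell markers. These markers summed to 76.2 to 251 CPM in Control and 69.3 to 174 CPM in Thymol. Akt1s1 followed the fast-fibre markers (r = 0.46, rho = 0.43, permutation p = 0.0186) and ran against fibroblast (r = -0.45, rho = -0.42, permutation p = 0.0336) and leukocyte markers (r = -0.45, rho = -0.43, permutation p = 0.0329). The fibroblast and leukocyte values were -0.15 and -0.19 without Control 18 and 1 further mouse each, so they rested on those mice. Mlst8 also ran against leukocyte markers (r = -0.45, rho = -0.43, permutation p = 0.0295). Rptor was lower in deeper libraries (r = -0.44, rho = -0.43, permutation p = 0.0308), and r was -0.28 without the 2 mice farthest in depth. Mlst8 was lower there too (r = -0.43, rho = -0.44, permutation p = 0.0416). Depth relations did not follow abundance, with r = -0.11 for Rragc and 0.10 for Akt1s1. Rheb had r = -0.37 (rho = -0.14, permutation p = 0.0824). Eif4ebp1 had r = -0.36 (permutation p = 0.14) and rho = -0.42 (permutation p = 0.0454), and r = -0.51 without Control 19.

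**Figure D5:**
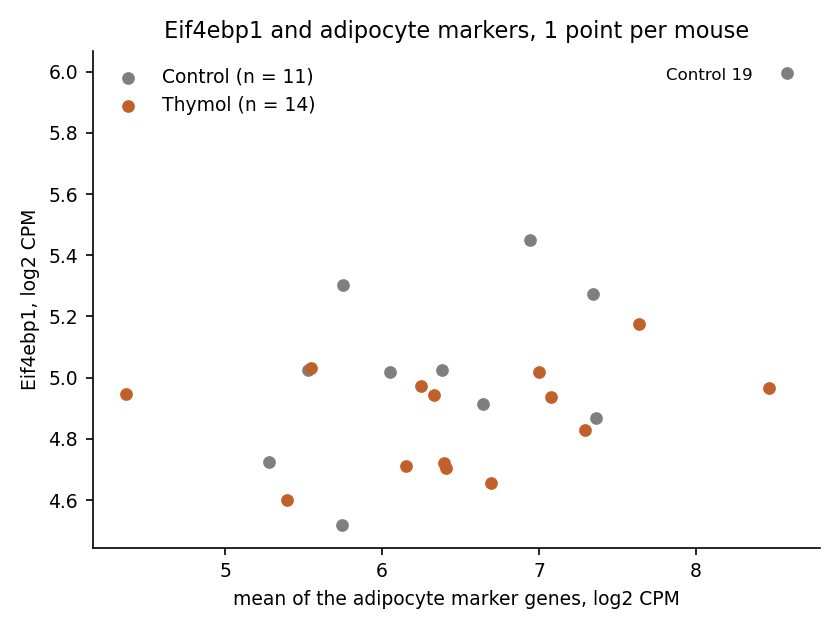
Eif4ebp1 in log2 CPM (vertical axis) against the mean of the 7 adipocyte markers in log2 CPM (horizontal axis), with 1 point per mouse, Control in grey (n = 11) and Thymol in orange (n = 14). Control 19 stands at the upper right, highest on both axes, and r is 0.51 with it and 0.31 without it.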

How the data were processed

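RNA of gastrocnemius from 25 mice was profiled as 1 library per mouse, grouped by the treatment in the labels (11 Control, 14 Thymol) and named by the last number of the label. The authors aligned the reads (STAR 2.5.3, GRCm38), obtained gene counts (HTSeq 0.6.1), kept genes with at least 30 reads in at least 6 samples, applied TMM normalization and deposited log2 CPM values. Every column was used. Whole reads were recovered from the steps between values (100.0% whole within 0.02 reads, 0 reads at -1.90), giving a median depth of 7503259 reads. Depth behind each member ran from 54 to 797 reads, and spread over counting error covers counting error only.

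Differences were fitted on the log2 values with limma 3.58.1 (R 4.3.3, eBayes with trend, two-sided), adjusted by Benjamini-Hochberg over 8829 genes. Fold changes understate those of low genes because of the authors' prior count. The design held no batch in the labels beyond a first label number and a library number, tried as alternatives. Correlations and ratios used two-sided permutation tests with 100000 resamples (numpy 2.4.6, scipy 1.17.1), drawn within groups for correlations. Scripts were tested on simulated data. Alternatives were quantile normalization, median centring, a filter on low values, a larger pseudocount, covariates, no trend, voom on recovered reads and leaving out mice. The members and lists were chosen with earlier results of these data known, so no list is independent evidence. Genes named outside the members were those with an unadjusted p under 0.05, the smallest p in each direction, the most and least abundant of each list, and the 2 most alike genes of each member. For 1 list and 1 marker group, the gene this rule or the lowest marker would name is not reported here.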

Additional observations from a re-analysis of the deposited data

How the results depend on the processing

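No gene of the table passed the adjusted threshold under any of the 10 alternative fits or the 25 fits that left out 1 mouse, and the unadjusted count ran from 234 to 346 and, with 1 mouse left out, from 287 to 348, against 312. The members with a lower mean in Thymol numbered 7 or 8 under the alternatives and 7 to 9 with 1 mouse left out.

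The count of members with an unadjusted p under 0.05, 1 in the report, was 0 with quantile normalization, with log2 depth as a covariate, without the trend and with voom on recovered reads, and ran from 0 to 3 with 1 mouse left out, where those called were Eif4ebp1, Rheb or Rragc. Small differences changed sign. With the first label number as a block, Akt1s1 was 0.0107, Rps6kb1 -0.0885 and Lamtor1 -0.0188 log2, and Lamtor1 was -0.0555 without Control 18, Control 19 and Thymol 20. With 1 mouse left out, Rps6kb1 ran from -0.0420 to 0.0337 and Lamtor1 from -0.0212 to 0.0497. Akt1s1 over Rptor was -0.0417 as a difference of medians and -0.14 without those 3 mice. The cause was not tested. Rheb ran from -0.19 to -0.12 and Rragc from -0.33 to -0.17 over all fits, and Eif4ebp1 from -0.29 to -0.13. Leaving out Control 19 for the ratios was chosen after seeing the data.

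Among member pairs, 0 passed under each of 12 alternatives and 0 reached r = 0.5. The last label number, used to name mice, is not shared between groups, but 7 first numbers are, over 16 mice, and the labels do not say what they mark. Of 9 Control and Thymol pairs with the same first number, 1 had deviations from the group means correlated over 0.1. The median correlation was 0.05 for these 9 pairs and -0.0089 for pairs with different numbers. The number was not used to pair mice. Whether it marks a shared factor was not tested, and the block above is an alternative only. It gave 282 genes with an unadjusted p under 0.05 and 0 adjusted, and among the members it called Rragc in place of Eif4ebp1 at an unadjusted p under 0.05. The members had depths of 54 to 797 reads. With these depths and group sizes, their 95% intervals reached 0.14 (Eif4e) to 0.25 log2 (Akt1s1) on either side of the estimate. These intervals hold for single genes before adjustment and are not a limit of detection. In limma the difference of Eif4ebp1 was -0.2291 log2, larger in size than its interval's reach of 0.2264 log2. It still did not pass the adjusted threshold. The smallest change that would pass that threshold was not computed.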
